A study of Mus musculus with 15 samples.

Results

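The collagen gene family was followed in gonadal white fat of male mice that either carried or lacked functional Sfrp5, a secreted protein that binds Wnt ligands. A probe set was taken as a collagen probe set where its annotation gave exactly 1 gene symbol made of Col, a chain number, the letter a and a second number, and the brightest probe set over the 15 arrays stood for each gene. This gave 44 collagen genes from 46 probe sets, out of 19938 named genes and 35557 probe sets. Col6a5 and Col6a6 were the 2 genes with a second probe set. Of the chains listed for this family, Col21a1 had no probe set with a single symbol and was not analysed here.

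All mice were male C57BL6/J animals that ate a high-fat diet for 8 weeks, from 4 to 12 weeks of age, and were sampled at 12 weeks. The wild-type group held 7 mice and the knockout group held 8 mice with the Sfrp5 allele Q27Stop, named for a stop codon. The labels name no promoter or Cre line that would limit the loss to a cell type. Each mouse gave 1 Affymetrix array, from total RNA of the whole fat pad, so the values are a mixture over adipocytes, fibroblasts, vessels, immune cells and any attached tissue. Values are log2 expression after RMA, a method that corrects background, aligns the arrays and summarises the probes of each set. A difference of 1 unit on this scale is a doubling. Levels of different genes cannot be compared on it, because each probe set has its own response.

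Collagens are secreted proteins of 3 chains wound into a triple helix, and a trimer can hold copies of the same chain or chains of several genes. Fibril-forming collagens (types I, III and V among them) make the cables of connective tissue. Type IV collagen makes the sheet of basement membranes, to which types XV and XVIII attach, and every adipocyte and capillary is wrapped in such a sheet. Type VI collagen forms beaded microfilaments around cells and is a known major matrix component of expanding fat. In obese fat, fibroblasts, their progenitors and vessel cells are known as the main sources of collagen RNA.

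The 44 genes fell into 11 fibril-forming chains, 8 basement membrane chains (types IV, XV and XVIII), 6 type VI chains, 9 fibril-associated chains, 4 transmembrane chains and 6 others. RefSeq promoter windows (assembly GRCm38.p6) were found for 35 of the 44 genes, 38 windows in all because 3 genes had more than 1 start. Stretches upstream of 4 genes are printed 5′ to 3′ because these genes represent the patterns described further on: Col3a1, Col6a1 and Col6a3 varied closely together across mice, and Col1a2 varied in part separately from them. Capitals mark matches to TATAAA (the TATA box), CCAAT (the CCAAT box) or GGGCGG (the GC box) on either strand, and only bases outside any annotated gene are given.
Col3a1 promoter (chr1:45311288-45311537, plus strand): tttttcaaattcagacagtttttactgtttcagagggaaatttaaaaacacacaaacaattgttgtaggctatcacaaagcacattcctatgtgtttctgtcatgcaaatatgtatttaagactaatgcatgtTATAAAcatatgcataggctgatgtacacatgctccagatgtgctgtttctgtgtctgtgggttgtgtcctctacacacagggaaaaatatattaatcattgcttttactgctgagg
Col6a1 promoter (chr10:76726045-76726294, minus strand): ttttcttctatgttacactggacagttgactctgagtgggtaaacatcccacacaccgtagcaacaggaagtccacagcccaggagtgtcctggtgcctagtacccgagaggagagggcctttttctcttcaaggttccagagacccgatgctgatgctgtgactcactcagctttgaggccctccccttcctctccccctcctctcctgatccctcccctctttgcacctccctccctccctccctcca
Col6a3 promoter (chr1:90844002-90844221, minus strand): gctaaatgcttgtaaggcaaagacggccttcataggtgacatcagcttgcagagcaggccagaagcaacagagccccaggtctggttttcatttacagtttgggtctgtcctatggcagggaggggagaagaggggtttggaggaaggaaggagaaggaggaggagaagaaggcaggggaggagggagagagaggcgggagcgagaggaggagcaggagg
Col1a2 promoter (chr6:4505368-4505617, plus strand): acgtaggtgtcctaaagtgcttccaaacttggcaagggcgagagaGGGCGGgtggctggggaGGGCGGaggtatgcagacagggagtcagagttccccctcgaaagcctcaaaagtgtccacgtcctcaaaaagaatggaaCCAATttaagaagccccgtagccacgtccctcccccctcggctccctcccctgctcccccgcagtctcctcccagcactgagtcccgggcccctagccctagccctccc
None of the motifs was common to the 3 genes that varied together: the Col3a1 stretch held 1 TATAAA, and the Col6a1 and Col6a3 stretches held none of the 3 motifs. Col1a2 held 1 CCAAT and 2 GGGCGG. Over the 250 bases before each start, TATAAA was present in 5 of 38 collagen windows, against 12.4% of the 32851 RefSeq windows. CCAAT was present in 13 of 38, against 33.9%, and GGGCGG in 22 of 38 (57.9%), against 32.7%. Matches of different motifs were allowed to overlap, and a match describes these letters only. Col4a1 and Col4a2, the chains of the common type IV trimer, start 21 bases apart on opposite strands of chromosome 8 (starts at 11312826 and 11312805). Col4a5 and Col4a6 also lie on opposite strands, on chromosome X, with 1343 bases between their starts (141475419 and 141474076). The first pair overlaps at its starts and the second does not.

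Sfrp5 itself followed the labels. Its level was 7.92 ± 0.24 (SD, n = 7) with the intact gene and 6.69 ± 0.40 (SD, n = 8) with the stop codon, so knockout minus wild type was -1.23 (SE 0.16, adjusted p = 0.0200 in limma). Leaving out any 1 mouse kept the difference between -1.29 and -1.13, and the adjusted p rose to between 0.0501 and 0.0670 without any 1 of wild-type mice 2, 3, 4 and 5 or knockout mice 2, 5 and 8. It was 0.119 without wild-type mouse 4 and knockout mouse 2, 0.316 with knockout mice 7 and 8 as the only knockout arrays, and 0.3001 in the fit blocked on replicate number. The exact permutation p was 0.000155, the smallest that 6435 splits can give. Array medians lay between 6.99 and 7.07. The mean level of the 9 measured adipocyte markers was 11.56 to 11.97 per array. These values carry no detection call, so the tissue was described by this signal only. Markers of other tissue differed between arrays. Over 9 epididymis markers, knockout mouse 2 lay 4.20 above and wild-type mouse 4 lay 1.52 above the mean of all mice, knockout mouse 6 lay 0.59 above it, and the other 12 mice lay between -0.81 and 0.04. Over 10 macrophage markers, knockout mouse 8 lay 0.97 above it and wild-type mouse 2 lay 0.48 above it, and the other 13 mice lay between -0.44 and 0.18. The spread of the type VI chains, the covariation and the marker correlations are also given without such mice, a choice made after the data were seen. In a whole fat pad, fewer cells of a type and less RNA per cell cannot be told apart.

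The comparison of genotypes asked whether collagen RNA in fat depends on Sfrp5. No collagen gene passed the adjusted threshold of 0.05 in limma, a linear model with a variance estimate shared over all 35557 probe sets: 0 of 44, against 12 of 35557 probe sets (0.0337%). At an unadjusted p under 0.05 there were 2 of 44, Col6a4 and Col6a6, both higher in knockout mice. The share was 9.97% over all probe sets and 6.69% over all named genes, the latter made of 2.3% higher and 4.39% lower. In the mean, 23 collagen genes were higher and 21 lower in knockout mice, and 44.8% of all named genes were higher. The median difference was 0.00 over the 44 collagens and -0.01 over all named genes. The genotypes overlapped in all 44 genes, and 0.11% of named genes had genotypes that did not overlap.

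**Figure D1:**
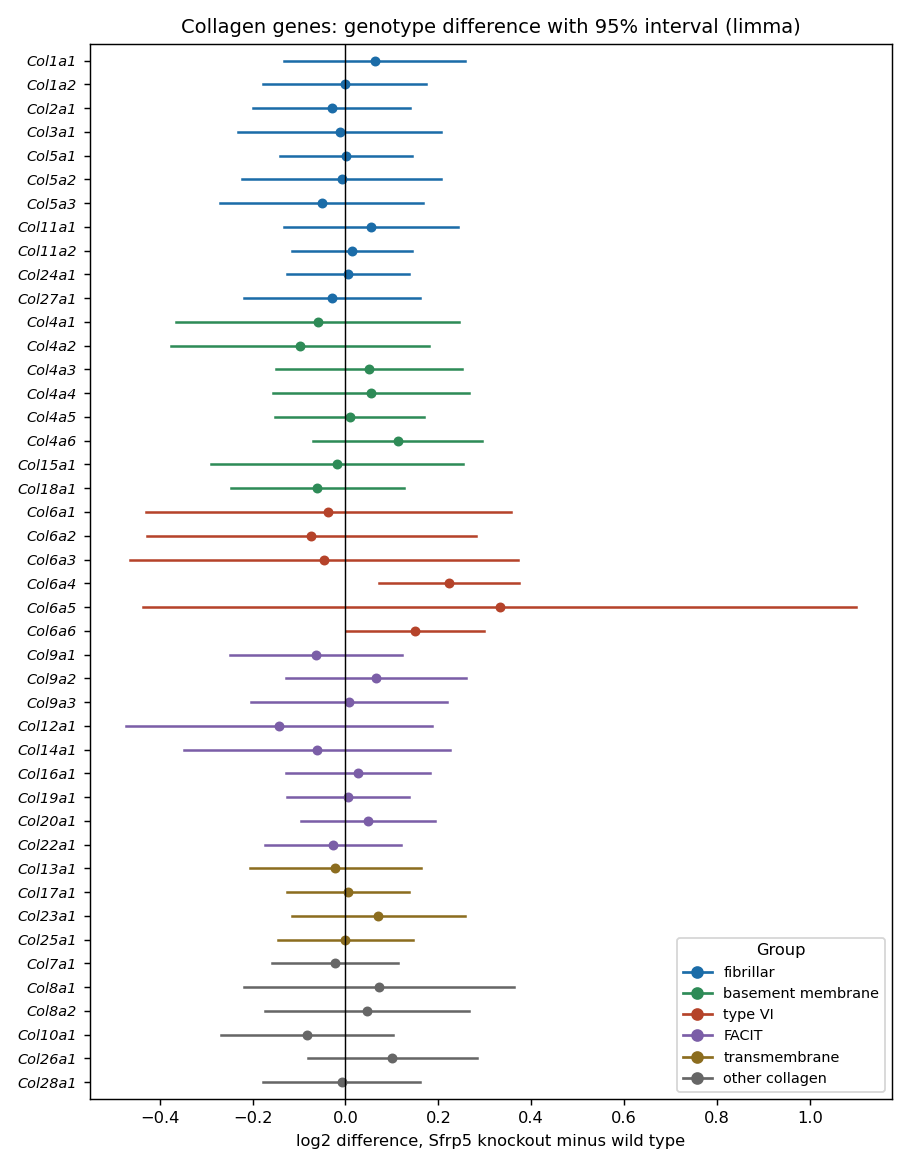
Log2 difference of each of the 44 collagen genes, Sfrp5 knockout (n = 8) minus wild type (n = 7), with its 95% interval from limma, coloured by group. The intervals of 42 genes cross 0; those of Col6a4 and Col6a6 lie above it, and the interval of Col6a5 is the widest.

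Type I collagen, the main fibril former, is a trimer of Col1a1 and Col1a2 chains. Col1a1 ranged in wild-type mice from 8.65 over a median of 8.77 to 8.85, and in knockout mice from 8.48 over 8.76 to 9.13. The wild-type mice thus lay inside the range of the knockout mice, with knockout mice 1, 7 and 8 above all of them and knockout mouse 6 below. The difference was 0.06 (SE 0.09, 95% interval -0.13 to 0.26, limma adjusted p = 0.882). Col1a2 ran from 9.03 over 9.12 to 9.29 in wild-type mice and from 8.92 over 9.05 to 9.42 in knockout mice. Its extremes were again knockout mice, with a difference of -0.00 (SE 0.08, 95% interval -0.18 to 0.17).

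Col3a1, the chain of type III collagen that is laid down with type I, ran from 9.18 over 9.27 to 9.54 in wild-type mice and from 8.91 over 9.30 to 9.66 in knockout mice. Knockout mice 2 and 4 were lowest and knockout mice 8 and 1 highest. The difference was -0.01 (SE 0.10, 95% interval -0.23 to 0.21). Type V collagen sets the width of type I fibrils. Its Col5a1 chain lay between 7.94 and 8.04 in wild-type mice (SD 0.03) and between 7.77 and 8.20 in knockout mice (SD 0.16), with equal means to 2 decimals. Col5a2 lay between 7.57 and 7.97 in wild-type mice and between 7.31 and 8.04 in knockout mice, a difference of -0.01 (SE 0.10).

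The SD over mice was larger in knockout than in wild-type mice for 25 of the 44 genes. Among them were 8 of 11 fibril-forming, 3 of 8 basement membrane and 4 of 6 type VI chains. The same share over all named genes was not counted, so these counts are not read as a trait of collagens. Knockout mouse 2 was highest in epididymis markers and knockout mouse 8 in macrophage markers, and their part in the spread was not tested. For Col1a1 the SD was 0.24 in knockout mice and 0.07 in wild-type mice. Whether spread differed between genotypes was not tested.

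Col4a1 and Col4a2 make the type IV trimer found in nearly all basement membranes. Col4a1 ranged from 8.54 over 8.88 to 9.17 in wild-type mice and from 8.34 over 8.81 to 9.30 in knockout mice. Most mice of both genotypes shared the same range, and knockout mice 2 and 4 lay below every wild-type mouse. The difference was -0.06 (SE 0.14, 95% interval -0.36 to 0.24). Col4a2 ranged from 8.43 over 8.59 to 8.94 in wild-type mice and from 8.03 over 8.56 to 8.99 in knockout mice, a difference of -0.10 (SE 0.13, 95% interval -0.37 to 0.18).

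Col15a1, a proteoglycan collagen that links basement membranes to the matrix around them, ranged from 9.24 to 9.84 in wild-type mice and from 9.15 to 9.96 in knockout mice, a difference of -0.02 (SE 0.13). Col18a1, whose C-terminal fragment is endostatin, ranged from 7.33 to 7.83 and from 7.35 to 7.83, a difference of -0.06 (SE 0.09). Both genotypes covered the same levels in these chains. Col4a6, a chain of type IV networks in other organs, had a wild-type mean of 6.59 ± 0.17 (SD, n = 7) and a knockout mean of 6.70 ± 0.16 (SD, n = 8) (limma adjusted p = 0.739).

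Col6a1, Col6a2 and Col6a3 form the common type VI trimer, and a fragment cut from the end of the Col6a3 protein is known as endotrophin. Col6a1 ranged from 9.27 over 9.69 to 10.11 in wild-type mice and from 9.01 over 9.60 to 10.28 in knockout mice. Col6a2 ranged from 8.76 over 8.93 to 9.36 in wild-type mice and from 8.35 over 8.94 to 9.64 in knockout mice. In Col6a3, wild-type mice ranged from 9.43 over 9.59 to 10.13 and knockout mice from 8.96 over 9.76 to 10.33. In all 3 chains knockout mice 2 and 4 were lowest and knockout mouse 8 was highest. The differences were -0.04 (SE 0.19) for Col6a1, -0.07 (SE 0.17) for Col6a2 and -0.05 (SE 0.20, 95% interval -0.46 to 0.37) for Col6a3. These intervals allow a change of either sign that is larger than that allowed for Col1a1 or Col1a2.

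The chains of the common type VI trimer varied more among mice than most genes. With genotype means subtracted, the SD of Col6a3 was at percentile 95.3 of all named genes, Col6a1 at 94.7 and Col6a2 at 93.3. High spread was not particular to type VI. Col12a1 was at 91.7, Col4a1 at 89.8, Col8a1 at 88.5, Col14a1 at 88.0, Col4a2 at 86.8 and Col15a1 at 86.2. Col3a1 was at 72.7 and Col5a1 at 20.7. The ratio of the highest to the lowest mouse was 2.59 for Col6a3 and 1.41 for Col1a2, and its median over the 44 genes was 1.53. The extremes of Col6a3 were knockout mice 2 and 8, and without wild-type mice 2 and 4 and knockout mice 2 and 8 the ratio was 2.09, beside a median of 1.42 over the 44 genes. The percentiles of the SD were then 94.7 for Col6a3, 94.4 for Col6a1 and 85.7 for Col6a2.

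**Figure D2:**
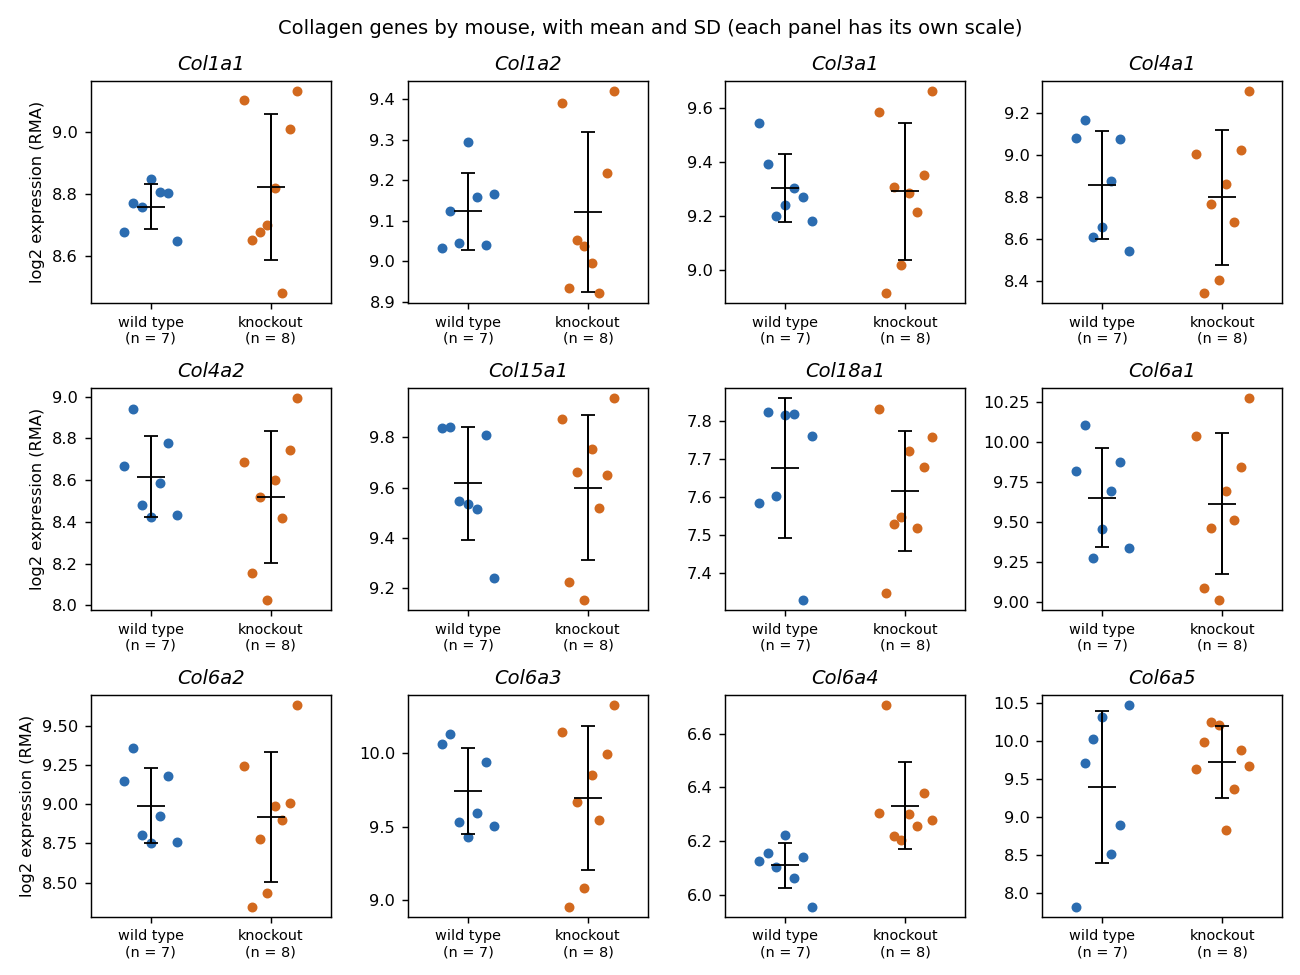
RMA log2 expression of 12 collagen genes in each mouse (points), with the mean and SD of 7 wild-type and 8 knockout mice, each panel on its own scale. Genotypes overlap in every panel; Col6a4 shows all 8 knockout mice above the wild-type mean, and Col6a5 shows the widest spread, from 7.83 to 10.48.

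The 3 further type VI chains, Col6a4, Col6a5 and Col6a6, can take the place of the Col6a3 chain in a trimer, and their genes lie side by side on mouse chromosome 9. Col6a4 ranged from 5.96 over 6.12 to 6.22 in wild-type mice and from 6.21 over 6.29 to 6.71 in knockout mice. All 8 knockout mice lay above the wild-type mean, and the overlap came from wild-type mouse 4 at 6.22 and the lowest knockout mice. The difference was 0.22 (SE 0.07, 95% interval 0.07 to 0.37), with a limma p of 0.00664 that became 0.281 after adjustment over all probe sets. An exact two-sided permutation test over the 6435 splits of the mice gave p = 0.000932, unadjusted, for a gene that was singled out as the lowest p of the family. The highest value, 6.71, came from knockout mouse 2, which also carried the epididymis markers, and without that mouse the difference was 0.17. The probe set was dim, at percentile 26.1 of the signal of all named genes, which says nothing of the amount of its transcript.

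Col6a6 ranged from 7.79 over 8.03 to 8.19 in wild-type mice and from 8.05 over 8.15 to 8.31 in knockout mice. The lowest values were wild-type mice 1 and 6, and all 8 knockout mice lay above the wild-type mean. The difference was 0.15 (SE 0.07, limma adjusted p = 0.499), and the exact permutation test gave an unadjusted p of 0.0413. This gene too was singled out by its low limma p in the same data, so the permutation p lends no independent support. The second Col6a6 probe set gave 0.01 (SE 0.09), and the probe sets correlated over the 15 mice with r of 0.09, so the difference rested on 1 of them. Their average gave 0.08.

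Of 10 markers of mesothelium, the cell layer that covers the fat pad, 10 were higher in the mean in knockout mice. Over all named genes the share was 44.8%. At an unadjusted p under 0.05, 4 of the 10 were higher, against 2.3% of all named genes, and 0 passed the adjusted threshold. The mean of the 10 per mouse, relative to all mice, ranged from -0.90 to 0.44 in wild-type mice and from -0.28 to 0.52 in knockout mice. The 4 were Upk3b, Krt19, Muc16 and Upk1b. Of 9 fibroblast and progenitor markers 9 were higher in the mean, 1 of them (Dpt) at an unadjusted p under 0.05, and their mean per mouse ran over -0.12 to 0.06 with the intact gene and over -0.25 to 0.31 in knockout mice. Of 10 endothelial markers 9 were lower, 0 at an unadjusted p under 0.05, with ranges of -0.34 to 0.23 and -0.31 to 0.13. Other lists were also mostly higher in the mean: 8 of 10 macrophage, 7 of 9 epididymis, 6 of 8 skeletal muscle and 6 of 9 adipocyte markers. Of mural markers 3 of 8 were higher, and of Schwann cell markers 2 of 4. The part of any of these markers in the Col6a4 and Col6a6 values was not tested.

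Col6a5 varied most of all collagens. It ranged from 7.83 over 9.71 to 10.48 in wild-type mice and from 8.83 over 9.78 to 10.24 in knockout mice, a 6.28-fold range over the mice, at percentile 98.5 of the SD of all named genes. Wild-type mice 1, 5 and 6 were low at 7.83, 8.52 and 8.90, knockout mice 5 and 6 were at 8.83 and 9.36, and the other mice lay between 9.63 and 10.48. The second Col6a5 probe set followed the first with r of 0.98 and a 3.38-fold range. The genotype difference was 0.33 (SE 0.36, limma adjusted p = 0.834), and it was 0.07 without wild-type mouse 1.

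Group means gave the same account. Each gene was centred on its mean over the 15 mice and the genes of a group were averaged in each mouse. The fibril-forming group differed by 0.00 (SE 0.05) between genotypes and the basement membrane group by -0.00 (SE 0.05). The type VI group differed by 0.09 (SE 0.09) over all 6 chains and by -0.05 (SE 0.19) over the 3 chains of the common trimer. Per mouse, the type VI group ranged from -0.24 to 0.21 in wild-type mice and from -0.16 to 0.35 in knockout mice, where knockout mouse 8 was highest.

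The description field of the labels carries a number that is higher for every wild-type mouse and for knockout mice 7 and 8 than for the other 6 knockout mice. With knockout mice 7 and 8 as the only knockout arrays, the differences were 0.11, 0.14 and 0.31 for the fibril-forming, basement membrane and type VI groups. The labels do not say what this number means, and its part in the differences was not tested.

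Col26a1 and Col10a1 were also among the 5 with the lowest p and did not pass the threshold. Col26a1 had a wild-type mean of 7.64 ± 0.21 (SD, n = 7) and a knockout mean of 7.74 ± 0.11 (SD, n = 8). Col10a1, the chain of growth plate cartilage, had 7.30 ± 0.19 (SD, n = 7) and 7.21 ± 0.15 (SD, n = 8). Over the remaining 26 genes the differences lay between -0.14 (Col12a1, SE 0.15) and 0.07 (Col8a1, SE 0.14).

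Many collagen genes varied together across mice. A set of 8 chains, Col3a1, Col4a1, Col4a2, Col6a1, Col6a2, Col6a3, Col12a1 and Col15a1, moved together whatever their group. Their 28 pairwise correlations with genotype means subtracted ran from 0.85 to 0.98 with a median of 0.93. The set was chosen after its values were seen, so this is a description. Over all pairs of named genes the median r was 0.01, and 0.0388% of pairs reached 0.9. Among pairs in the brighter part of the named genes the share was 0.0562%.

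The order of the mice was shared. In 8 of 8 of these chains the lowest mouse was knockout mouse 2 or 4, and in 7 of 8 the highest was knockout mouse 8. The range of r was 0.82 to 0.97 without wild-type mouse 4 and knockout mouse 2, and 0.81 to 0.97 without wild-type mouse 2 and knockout mouse 8. Within wild-type mice it was 0.53 to 0.98 with a median of 0.88, and within knockout mice 0.93 to 0.99 with a median of 0.97. With the median of each array subtracted it was 0.87 to 0.98.

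**Figure D3:**
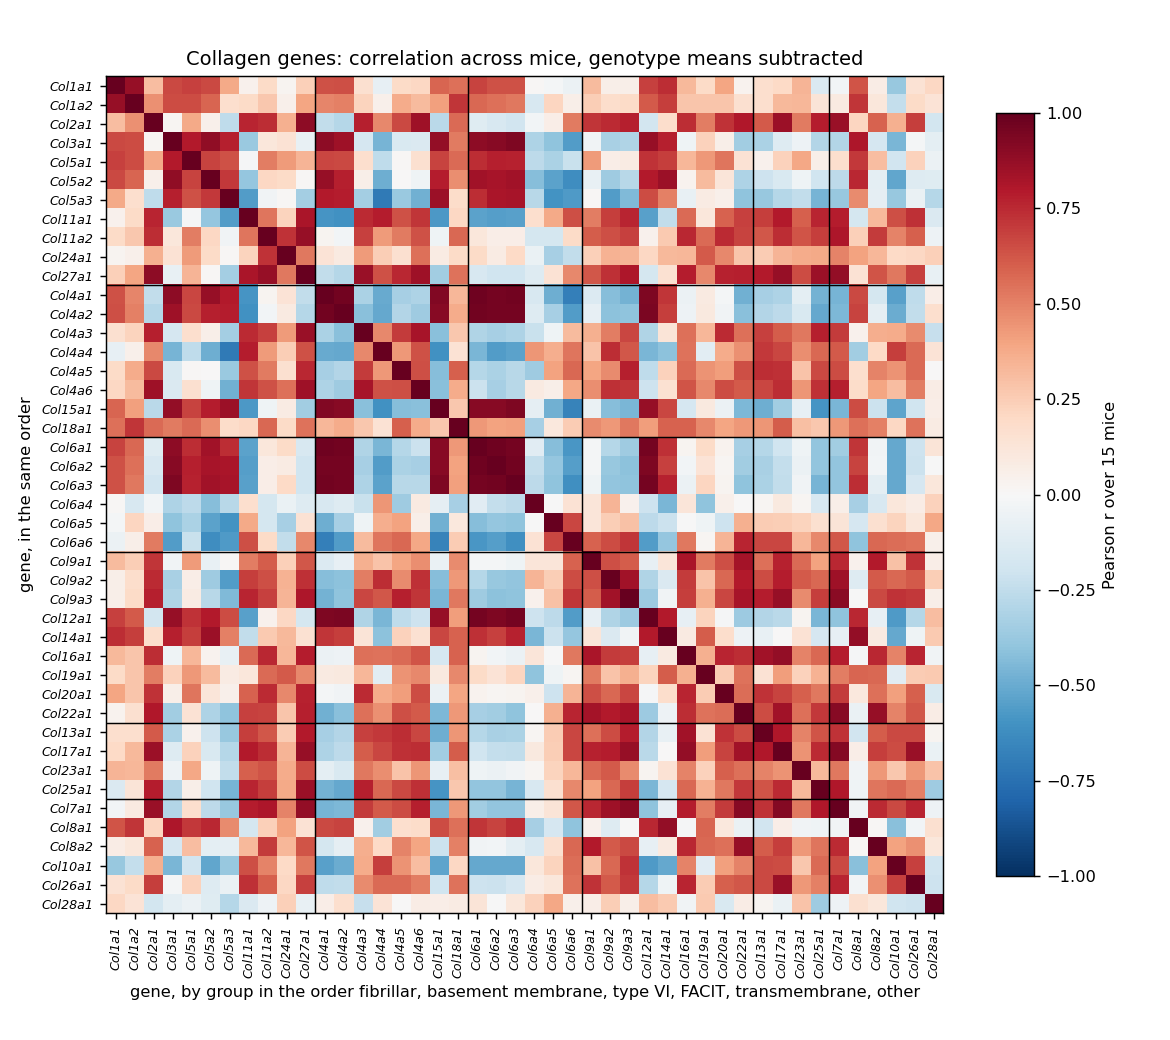
Pearson correlation over 15 mice between all 44 collagen genes, with the mean of each genotype subtracted, ordered by group (black lines); red is positive and blue negative. The crossing of the type IV and type VI blocks is dark red for Col4a1 and Col4a2 with Col6a1 to Col6a3 (0.95 to 0.98), while Col4a3 to Col4a6, Col6a5 and Col6a6 are blue against these chains.

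For 26 pairs of genes listed as chains of 1 trimer or fibril, as representatives of 2 groups, or as a chain with a gene of another role, r was tested over the 15 mice with permutation p-values (100000 resamples) adjusted over the 26 pairs. The pairs were listed with earlier results of these data known, so their p-values describe the pairs and lend no independent support. By the adjusted p of r, 20 of 26 were past 0.05, and by that of rho some pairs fell on the other side. The number was 12 without knockout mouse 8, 10 without wild-type mouse 2 and knockout mouse 8, and 12 after quantile normalization of the arrays. Of all pairs of named genes, 8.92% had an absolute r at least as large as the weakest of these 20, so a single correlation of that size is common on these arrays.

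Chains of the common trimers were close. Col4a1 and Col4a2 had r of 0.96 and rho of 0.94, and 0.95 without the 2 mice farthest from the median of Col4a1. Col6a1 and Col6a2 had r of 0.97 and rho of 0.96, and Col6a1 and Col6a3 had r of 0.96 and rho of 0.95, or 0.95 and 0.94 in r without the 2 farthest mice. For each of these pairs the permutation p of r was 1e-05, the smallest that the resamples can give. Close pairs also crossed the groups: Col4a1 and Col6a1 had r of 0.97 and rho of 0.96 (0.96 without the 2 farthest mice), and Col4a1 and Col15a1 had r of 0.93 and rho of 0.87 (0.88 without them).

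Type I collagen kept some distance from that set. Col1a1 and Col1a2 had r of 0.85 and rho of 0.70 (permutation p = 0.000100, adjusted p = 0.000371), and 0.66 without the 2 farthest mice. Their correlations with the 8 chains ran from 0.41 to 0.69. Col1a1 and Col4a1 had r of 0.60 and rho of 0.53 (permutation p of r = 0.0171, adjusted p of r = 0.0279 and of rho = 0.0614). Without the 2 farthest mice the r became 0.43. Col1a1 and Col6a1 had r of 0.65 and rho of 0.59 (permutation p = 0.00811, adjusted p = 0.0192), and 0.41 without the 2 farthest mice. Within wild-type mice the r of Col1a1 was 0.40 with Col1a2, 0.11 with Col4a1 and 0.15 with Col6a1. The exact permutation p was 0.374, 0.781 and 0.719. Within knockout mice these r were 0.94, 0.80 and 0.81, with exact permutation p of 0.00104, 0.0180 and 0.0182. The difference in r between genotypes was not tested for these pairs.

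Some pairs of fibril-forming chains had a higher r within knockout than within wild-type mice. Col11a1 and Col11a2 did not, with 0.49 within knockout and 0.69 within wild-type mice. Col1a1 and Col3a1 had r of 0.64 and rho of 0.60 over all mice (permutation p = 0.00964, adjusted p = 0.0202), which became 0.29 without the 2 farthest mice. The r was -0.23 within wild-type mice (exact permutation p = 0.649) and 0.79 within knockout mice (exact permutation p = 0.0241). Col5a1 and Col5a2 had r of 0.68 and rho of 0.58 over all mice, 0.44 without the 2 farthest, -0.01 within wild-type and 0.83 within knockout mice. Wild-type mice spanned a narrow range of Col1a1 and Col5a1, and the difference in r between genotypes was not tested.

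**Figure D4:**
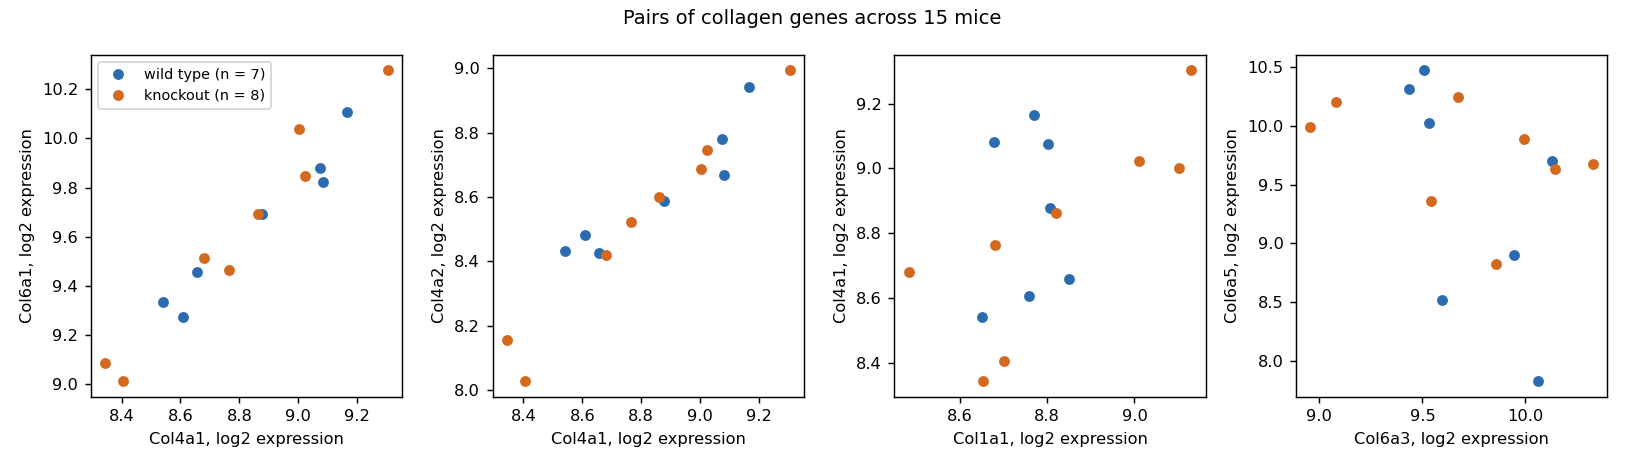
Log2 expression of pairs of collagen genes in each of 15 mice, 7 wild type in blue and 8 knockout in orange. Col4a1 against Col6a1 and against Col4a2 lie close to a line in both genotypes, Col1a1 against Col4a1 is loose with a narrow wild-type range of Col1a1, and Col6a3 against Col6a5 shows no common rise.

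Other trimer partners were looser. Col4a5 and Col4a6 had r of 0.62 and rho of 0.67 (permutation adjusted p of r = 0.0279 and of rho = 0.0173). Col9a1 and Col9a2 had 0.58 and 0.55 (permutation adjusted p of r = 0.0320 and of rho = 0.0507). Col11a1 and Col11a2 had 0.54 and 0.44 (permutation adjusted p of r = 0.0495 and of rho = 0.124). Col4a3 and Col4a4 had 0.49 and 0.67 (permutation adjusted p of r = 0.0806 and of rho = 0.0173). Col8a1 and Col8a2, the chains of type VIII collagen of vessel walls, had r of 0.03 and rho of -0.01 (permutation adjusted p = 0.940). Col18a1 did not follow Col4a1 past the threshold, with r of 0.35 and rho of 0.29 over all mice (permutation adjusted p = 0.235), and 0.04 without the 2 farthest mice. Their r was -0.30 within wild-type mice (exact permutation p = 0.589) and 0.84 within knockout mice (exact permutation p = 0.00933), a difference that was not tested. Its correlations with the 8 chains ran from 0.27 to 0.52.

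The group names gathered the genes that varied together only in part. The median r was 0.35 within the fibril-forming group, 0.27 within the basement membrane group and -0.24 within type VI. Over all pairs of named genes it was 0.01, with an upper quartile of 0.25. Between groups it was 0.39 for fibril-forming with basement membrane chains, 0.06 for fibril-forming with type VI and -0.07 for basement membrane with type VI. An r of at least 0.9 was reached by 20.0% of pairs within type VI, 10.7% within basement membrane and 0% within fibril-forming chains. Between groups it was reached by 18.75% for basement membrane with type VI and 3.03% for fibril-forming with type VI. The share was 0% for fibril-forming with basement membrane chains, and 0.0388% over all pairs of named genes. Col4a3 to Col4a6 had r between -0.52 and -0.29 with Col4a1 and Col4a2. Col6a5 had r between -0.49 and -0.26 with the 8 chains, and Col6a6 between -0.69 and -0.55. Between these ends lay Col5a2 (0.77 to 0.88), Col5a3 (0.65 to 0.86), Col14a1 (0.67 to 0.79) and Col8a1 (0.65 to 0.81).

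A second set of 9 chains, also chosen after its values were seen, is known mainly from cartilage, epithelium, muscle junctions and nerve: Col2a1, Col7a1, Col9a2, Col9a3, Col11a1, Col17a1, Col22a1, Col25a1 and Col27a1. Their 36 pairwise correlations ran from 0.57 to 0.92 with a median of 0.80. With the 8 chains they ran from -0.60 to 0.02. Their probe sets lay between percentiles 39.1 and 64.1 of brightness, and those of the 8 chains between 62.1 and 89.8. The mean of the 9 chains followed the median of the array over the 15 mice with r of 0.80, and the mean of the 8 chains had r of -0.64 with it. With array medians subtracted, the 9 chains still ran from 0.45 to 0.88. Chains left out of the set came as close to it, with array medians not subtracted. Col4a6 had r of 0.61 to 0.85 with the 9 chains and Col13a1 had 0.61 to 0.80. The 9 chains are thus not a closed group, and their tissues do not mark it out. Whether these probe sets measure their transcripts or a signal common to the array was not tested.

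Genes of other roles were set beside Col6a3 with genotype means subtracted. Over all named genes the median r with Col6a3 was 0.05, and 17.8% of genes had an r of at least 0.5. Among 19 genes of chain folding and hydroxylation 10 reached it (52.6%), led by Plod3, a lysyl hydroxylase, at 0.94. Among 9 partners of fibrils 6 reached it (66.7%), with Postn (periostin, a matrix protein of remodelling tissue) at 0.95 and Dcn (decorin, a proteoglycan that coats fibrils) at -0.79. Among 9 partners in the basement membrane 5 reached it (55.6%), led by Hspg2 (perlecan) at 0.95. Among 10 genes of profibrotic signals 5 reached it, led by Tgfb1, a ligand that drives matrix production, at 0.86. The median of these 10 genes was 0.49, and the lowest was Tgfb2 at -0.74. The counts were also taken without the mice with the highest epididymis markers, macrophage markers or both. They were then 9 to 10 of 19, 6 of 9, 4 to 6 of 9 and 4 to 5 of 10, in this order. The share of all named genes was 14.2% to 17.5%.

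Cell type markers differed from each other in the same measure. Of 10 macrophage markers 8 reached 0.5 with Col6a3, with a median of 0.79, and of 10 endothelial markers 8, with a median of 0.68. Of 9 fibroblast and progenitor markers 3 reached it, with Thy1 at 0.96 and Pdgfra at -0.51. Of 9 adipocyte markers 2 reached it, Lep (leptin) at 0.94 and Cidec at 0.88, while Adipoq (adiponectin) was at -0.14. The medians were 0.29 for mural, -0.27 for mesothelial, -0.53 for epididymis, -0.09 for skeletal muscle and 0.44 for Schwann cell markers. With Col1a1, 9 of 10 macrophage markers and 1 of 10 endothelial markers reached 0.5, against 8.67% of all named genes. Without the mice with the highest epididymis markers, macrophage markers or both, 6 to 8 macrophage and 5 to 7 endothelial markers reached 0.5 with Col6a3, and 3 fibroblast and 2 adipocyte markers did in each case. With Col1a1 7 to 9 macrophage and 0 to 5 endothelial markers reached it, beside 7.14% to 12.6% of all named genes. The median for epididymis markers with Col6a3 was -0.11 without wild-type mouse 4 and knockout mouse 2.

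Among the listed pairs, Col6a3 and Adgre1, the gene of the macrophage antigen F4/80, had r of 0.86 and rho of 0.94 (permutation p = 2e-05, adjusted p = 8.67e-05). The r was 0.83 without the 2 farthest mice, 0.87 without wild-type mouse 2 and knockout mouse 8, and 0.79 without wild-type mouse 4 and knockout mouse 2. Col4a1 and the endothelial gene Pecam1 had r of 0.75 and rho of 0.75 (permutation adjusted p = 0.00277), and 0.57 without the 2 farthest mice. Col4a1 and Nid1, which ties type IV collagen to laminin, had r of 0.74 and rho of 0.67, and 0.50 without the 2 farthest mice. Col6a3 and Antxr1, a receptor that binds type VI collagen, had r of 0.61 and rho of 0.58 (permutation adjusted p = 0.0267), and 0.59 without the 2 farthest mice.

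Decorin went the other way. Col3a1 and Dcn had r of -0.56 and rho of -0.45 (permutation p = 0.0307 and 0.0969, adjusted p of r = 0.0420), with -0.52 without the 2 farthest mice. It was -0.85 within wild-type and -0.76 within knockout mice. Col18a1 and Adipoq had r of -0.57 and rho of -0.66 (permutation adjusted p of r = 0.0389), and -0.68 without the 2 farthest mice. Col1a1 with Pdgfra, the receptor that marks fibroblast progenitors, had r of 0.02, and Col6a3 with Adipoq had r of -0.15. Col1a1 and Serpinh1, the chaperone of collagen chains, had r of 0.48 and rho of 0.41 (permutation adjusted p of r = 0.0835).

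By the rule for likeness, the 4 genes outside the family with the highest r to a group mean over 15 mice were Kcna10 (0.90), Rundc1, E2f2 and Pura for fibril-forming chains. They were Ubtd2 (0.92), Tfip11, Klhl29 and Gga3 for basement membrane chains, and Plppr4 (0.93), Lrg1, Ccl8 and S100a8 for type VI chains. By the same measure for single genes, a choice made after the data were seen, Paqr9 (0.97), Palld, Snrnp25 and Capzb were closest to Col6a3. Slc26a6 (0.94), Tubb2b, Rian and Rell1 were closest to Col1a1, and Mgp (0.88), Tesk2, Slco2a1 and Kcnj15 to Col6a5.

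No gene of the wider collagen pathway that was named by rule passed the adjusted threshold between genotypes. Among folding and hydroxylation genes, 8 were higher and 11 lower in knockout mice in the mean, 1 at an unadjusted p under 0.05. The lists of propeptide removal and cross-linking, of fibril partners and of breakdown and uptake also held 1 such gene each. Basement membrane partners, receptors and profibrotic signals held 0. Over all named genes 6.69% had an unadjusted p under 0.05, and 44.8% were higher in the mean. P3h3, of the prolyl 3-hydroxylase family, differed by 0.13 (SE 0.06, limma adjusted p = 0.480) and P4hb, a subunit of prolyl 4-hydroxylase, by -0.14 (SE 0.07, adjusted p = 0.568). Among genes of propeptide removal and cross-linking, 7 were higher and 3 lower, with Pcolce, an enhancer of propeptide cleavage, at 0.23 (SE 0.10, limma adjusted p = 0.474) and the lysyl oxidase relative Loxl3 at 0.07 (SE 0.05).

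Among 9 fibril partners 7 were higher and 2 lower. Dcn ranged from 12.49 over 12.67 to 12.76 in wild-type mice and from 12.68 over 12.81 to 12.92 in knockout mice. All 8 knockout mice lay above the wild-type mean and the ranges overlapped. The difference was 0.15 (SE 0.06, limma adjusted p = 0.353). Fmod (fibromodulin) differed by 0.37 (SE 0.20), where wild-type mice spanned 6.33 to 7.73. Among 9 basement membrane partners 2 were higher and 7 lower, with Lama4 at -0.07 (SE 0.09) and Nid1 at -0.09 (SE 0.12).

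Among 11 receptors 4 were higher and 7 lower, with the collagen receptor kinase Ddr1 at 0.15 (SE 0.08) and the integrin chain Itga1 at -0.18 (SE 0.11). Among 10 genes of breakdown and uptake 7 were higher and 3 lower. Mmp2, a gelatinase, ranged from 8.50 to 8.86 in wild-type mice and from 8.64 to 9.36 in knockout mice, a difference of 0.26 (SE 0.10, limma adjusted p = 0.396). Mmp14, the membrane protease that activates Mmp2, differed by 0.22 (SE 0.10, limma adjusted p = 0.507). Among 10 genes of profibrotic signals 4 were higher and 6 lower, with Pdgfra at 0.08 (SE 0.10) and Pdgfrb at -0.09 (SE 0.11).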

How the data were processed

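Gene expression was measured in gonadal fat of 7 wild-type and 8 Sfrp5 knockout mice, 1 array each, and genotype came from the sample titles. The deposited values are log2 expression per probe set, made by the authors with RMA, per the submitters' processing notes. Also listed there, with no role, are affy 1.18, Affymetrix Expression Console 1.1.2800.19935 and limma. Neither the genome build nor whether RMA was run on all arrays together was stated. Arrays give no count, so the number of mice limits the precision.

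Of 35557 probe sets, 21789 had 1 symbol, 1621 several and 12147 none. Of those with 1 symbol, 21698 matched RefSeq by gene ID. The brightest probe set stood for a gene. From the log2 values, limma 3.58.1 in R 4.3.3 was fitted to all probe sets by genotype, two-sided, with Benjamini-Hochberg adjustment over all of them at 0.05. Correlations were tested with permutations in scipy 1.17.1. Scripts were tested on simulated data.

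The family, its groups, the gene lists and the pairs were chosen with earlier results of these data known, so no p-value is given for a list. Named were 12 fixed chains, the 5 collagens with the lowest p, the 3 with the largest SD, and the 2 genes of lowest p in each pathway list. Titles call the mice biological replicates. Alternatives were other scaling, filters, variance models, probe set averages, groupings, and arrays left out.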

Additional observations from a re-analysis of the deposited data

Results flagged for a closer look

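In each genotype, the highest and lowest mouse of the 18 named collagens and 3 group means was compared with the rest of its group by Dixon's test, 42 groups of arrays in all, of which chance marks about 1 in 20. Knockout mouse 2 stood apart in Col6a4, at 6.71 against 6.38 in the next knockout mouse, and its gap was 0.651 of the range of the group against a critical value of 0.526. Wild-type mouse 6 stood apart in Col26a1, at 7.22 against 7.58 in the next wild-type mouse, a gap of 0.586 of the range against a critical value of 0.568.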

How the results depend on the processing

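No collagen gene passed the adjusted threshold in limma under any alternative, and 1 to 3 had an unadjusted p under 0.05. Over all genes, the 12 probe sets past it became 133 without knockout mouse 1 and 0 without any 1 of wild-type mice 2, 3, 4 and 5 or knockout mice 2, 5 and 8. Of 449 values of single genes, 63 had another sign than reported, in 12 of 18 named genes. Of 78 values of group differences, 75 moved by less than 1 SD, and with knockout mice 7 and 8 alone the fibril-forming, basement membrane and type VI differences were 0.11, 0.14 and 0.31. The 20 pairs past the threshold became 4 within wild-type mice, 12 after quantile normalization, and 10 without wild-type mouse 2 and knockout mouse 8. Leaving out 1 mouse at a time gave 12 (without knockout mouse 8) to 20. Within wild-type mice r turned to -0.010 for Col5a1 with Col5a2 and to -0.23 for Col1a1 with Col3a1. The replicate numbers gave no sign of pairing: same-numbered mice correlated from -0.12 to 0.25 in their deviations, and 0 of 7 numbers matched best with themselves. The labels do not say whether these numbers pair mice, and this check cannot exclude it. The fit with the replicate number as a block holds 7 mice a genotype, without knockout mouse 8, and its differences are those without that mouse: 0 collagens passed and the group differences were -0.02, -0.02 and 0.05. Why these values moved was not tested. Col6a4 was too dim to be tested with dim probe sets left out.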
